A study of Mus musculus with 18 samples.

Results

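Chemokine receptors and fractalkine, a set of 6 genes, were followed across 6 groups of mouse macrophages: the receptor genes Cxcr4, Cx3cr1, Ccr1 and Ccr2, the atypical receptor gene Ccrl2, and Cx3cl1, which encodes fractalkine. They were taken by name from the 56953 gene rows of the deposited table, and all 6 were among the 13068 genes that passed the filter on low counts. The cells were macrophages grown for 7 days from bone marrow in medium with 20% serum and 30% supernatant of L929 cells, which supplies the growth factor M-CSF. One genotype, called T169A, came from knock-in mice whose kinase RIPK1 has an alanine in place of a threonine; the other, called B6, was C57BL/6J. Each genotype was given LPS/5z7 for 2 hours, LPS for 2 hours, or nothing, which makes 6 groups of 3 libraries. LPS is lipopolysaccharide, which acts through the receptor TLR4. The abbreviation 5z7 is not explained in the labels; it is commonly used for 5Z-7-oxozeaenol, which inhibits the kinase TAK1. The change in T169A mice is carried by the whole animal and its macrophages alike. No group of 5z7 without LPS and no LPS group with the solvent of 5z7 was analysed here, and whether replicate libraries stem from different mice or culture wells is not stated, so each p-value measures the spread between these libraries.

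Chemokine receptors are G protein-coupled receptors that steer leukocytes along gradients of small secreted proteins. CXCR4 binds CXCL12 and holds cells in the bone marrow, CCR2 and its ligand CCL2 bring monocytes out of the marrow and into inflamed tissue, and CCR1 binds CCL3, CCL5 and related chemokines. Fractalkine differs from most chemokines in that it is made as a membrane protein on a mucin stalk, which metalloproteases cut to release a soluble form; its receptor, CX3CR1, is typical of resident macrophages, microglia and patrolling monocytes. CCRL2 does not signal as a chemokine receptor but binds chemerin and presents it to cells that carry CMKLR1. Messenger RNA counts show neither how much receptor sits on the cell surface nor how much fractalkine is shed.

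Libraries held between 14.6 and 30.4 M counts, so that 3 counts correspond to 0.0986 to 0.205 counts per M (CPM). The 10 macrophage markers summed to between 32420 and 45850 CPM in every library. Among markers of other cells, the B cell gene Cr2, the T cell gene Cd3e, the natural killer genes Ncr1, Gzma and Prf1, the mast cell genes Cpa3, Ms4a2 and Fcer1a, and the erythroid genes Hba-a1 and Alas2 had no count in any library, and Ly6g of neutrophils had at most 3. Other genes of the neutrophil list had counts in all 18 libraries, among them Ngp (146 to 542 counts) and Camp (15 to 76). The neutrophil list summed to 154 to 221 CPM. With LPS 4 of its 7 tested genes were called higher in each genotype (edgeR), beside 30.3% of all genes in T169A and 29.6% in B6 cells. The 10 monocyte markers summed to 308 to 361 CPM with LPS/5z7, 321 to 415 CPM with LPS and 279 to 348 CPM unstimulated in T169A cells, against 326 to 364, 344 to 369 and 260 to 289 CPM in B6 cells. Some lists moved with treatment: over both genotypes, 6 osteoclast markers summed to 113 to 141 CPM in all stimulated libraries against 10.2 to 16.6 CPM in unstimulated ones, 7 dendritic cell markers to 1.94 to 3.84 against 0.204 to 0.738 CPM, and 8 T cell markers to 26.1 to 38.7 against 38.5 to 69.1 CPM. In the osteoclast list Acp5 had a median of 108 CPM over the 18 libraries, and no other gene had a median over 4.13 CPM. Only Zbtb46 of the dendritic cell list passed the filter, on 4 to 61 counts per library. Of the T cell list 3 genes were tested, and with LPS Cd28, which gave most of its counts, fell and Lck rose in both genotypes (edgeR). The fibroblast, endothelial, mast cell and B cell lists summed to at most 17.6, 4.78, 1.87 and 5.27 CPM. The part of these lists in the results was not tested, and in bulk RNA fewer cells of a type and less RNA per cell cannot be told apart. Counts per gene do not reveal which Ripk1 allele was transcribed, so the genotype labels were not checked this way.

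The 250 bases before the annotated start site are shown for the 4 genes on which the results turn: Cxcr4, whose RNA fell furthest, Ccrl2 and Cx3cl1, which rose furthest, and Cx3cr1, which differed between the genotypes. Sequences and positions are those of RefSeq on GRCm38.p6. Searched on both strands, the windows were scanned for the NF-kB consensus by name, and for AP-1 (TGANTCA), the NRF1 palindrome, a core of the interferon response element, a TATA box (TATAAA) and a PU.1 core (GAGGAA); capitals mark the matches.
Cxcr4: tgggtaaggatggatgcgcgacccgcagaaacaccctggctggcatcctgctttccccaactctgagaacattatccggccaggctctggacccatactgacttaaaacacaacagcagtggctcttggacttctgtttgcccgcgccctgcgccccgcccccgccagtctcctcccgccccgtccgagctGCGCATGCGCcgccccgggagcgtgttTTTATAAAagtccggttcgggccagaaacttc
Ccrl2: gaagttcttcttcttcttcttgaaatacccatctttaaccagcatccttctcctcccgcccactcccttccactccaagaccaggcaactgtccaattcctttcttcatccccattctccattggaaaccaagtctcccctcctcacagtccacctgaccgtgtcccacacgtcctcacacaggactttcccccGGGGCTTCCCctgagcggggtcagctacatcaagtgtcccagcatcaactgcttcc
Cx3cl1: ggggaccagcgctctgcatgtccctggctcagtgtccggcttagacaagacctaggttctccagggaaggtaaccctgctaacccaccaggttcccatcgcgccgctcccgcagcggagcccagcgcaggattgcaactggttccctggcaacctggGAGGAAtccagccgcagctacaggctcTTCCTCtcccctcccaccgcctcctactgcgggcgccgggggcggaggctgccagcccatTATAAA
Cx3cr1: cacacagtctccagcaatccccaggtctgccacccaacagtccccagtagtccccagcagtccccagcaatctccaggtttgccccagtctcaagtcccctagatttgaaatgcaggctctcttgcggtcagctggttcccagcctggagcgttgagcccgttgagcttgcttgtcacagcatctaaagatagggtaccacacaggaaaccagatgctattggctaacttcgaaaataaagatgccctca
The Cxcr4 window, chr1:128592300-128592549 on the minus strand, holds the NRF1 motif with its first base 59 bases upstream of the start, and a pair of overlapping TATA boxes on opposite strands. The first of 3 annotated starts of Ccrl2, chr9:111057519-111057768 on the minus strand, has an NF-kB consensus 56 bases upstream; the windows of the other 2 starts hold none of the motifs. The Cx3cl1 window, chr8:94771930-94772179 on the plus strand, has a PU.1 core on each strand and ends in a TATA box 6 bases from the start. The Cx3cr1 window, chr9:120068297-120068546 on the minus strand, holds none of the 6 motifs, and neither does that of Ccr2; Ccr1 has a PU.1 core. Over the windows of 32807 annotated mouse starts, 0.777% hold the NRF1 motif, 3.9% the NF-kB consensus, 6.75% AP-1, 2.97% the interferon core, 12.4% the TATA box and 23.3% the PU.1 core. The G and C content was 61.2% for Cxcr4, 54% for Ccrl2, 64.8% for Cx3cl1 and 53.6% for Cx3cr1, against a median of 52.4% over all starts. A match describes the letters and does not show a bound site.

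Which of the 6 genes answered LPS was the first question. All did, and they split evenly: Ccrl2, Cx3cl1 and Ccr1 rose and Cxcr4, Cx3cr1 and Ccr2 fell, in T169A cells and in B6 cells. A call means that edgeR's quasi-likelihood F-test gave a p under 0.05 after Benjamini-Hochberg adjustment over all 13068 genes. LPS moved most genes, so a call alone does not set a member apart: 61.9% of all genes were called in T169A cells (30.3% higher and 31.5% lower) and 63.1% in B6 cells (29.6% higher and 33.5% lower). The members' median log2 fold change was 0.44 in T169A and 0.39 in B6 cells, beside -0.03 and -0.07 over all genes. As the members split evenly, their median falls in the gap between the falling and the rising genes and describes none of them. Single changes ran from 51.3-fold lower for Cxcr4 in B6 cells to 20.1-fold higher for Ccrl2 in T169A cells. The split of all calls depends on the scaling: 3965 genes were higher and 4120 lower in T169A cells and 3868 higher and 4372 lower in B6 cells, but with library size alone in place of TMM 1934 were higher and 8100 lower in T169A and 1996 higher and 8483 lower in B6 cells. That scaling moved the median of all genes for LPS to -0.61 in T169A and -0.66 in B6 cells.

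The next question was what 5z7 changed on top of LPS. In both genotypes Cx3cl1 rose further, Ccr1, Ccrl2 and Cxcr4 were lower than with LPS alone, and Cx3cr1 and Ccr2 were not called. The background was 13% of genes called in T169A cells (6.5% higher and 6.53% lower) and 13.8% in B6 cells (7.03% higher and 6.79% lower). Against unstimulated cells, LPS/5z7 left Ccrl2, Cx3cl1 and Ccr1 higher and Cxcr4, Cx3cr1 and Ccr2 lower, where 55.6% of genes were called in T169A (28.1% higher and 27.5% lower) and 55.5% in B6 cells (27.6% higher and 27.9% lower). With library size alone the LPS/5z7 against LPS split was 2177 higher and 530 lower in T169A and 2337 higher and 516 lower in B6 cells, against 850 and 853 in T169A and 919 and 887 in B6 cells with TMM, and the median of all genes was 0.17 and 0.18. Against unstimulated cells, LPS/5z7 had 1975 genes higher and 6997 lower in T169A and 2076 higher and 7333 lower in B6 cells with library size alone, against 3678 and 3591 in T169A and 3610 and 3647 in B6 cells with TMM. The comparison of LPS/5z7 with LPS and that of LPS with unstimulated cells share the LPS libraries, and their values are given side by side without a measure of their relation.

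**Figure D1:**
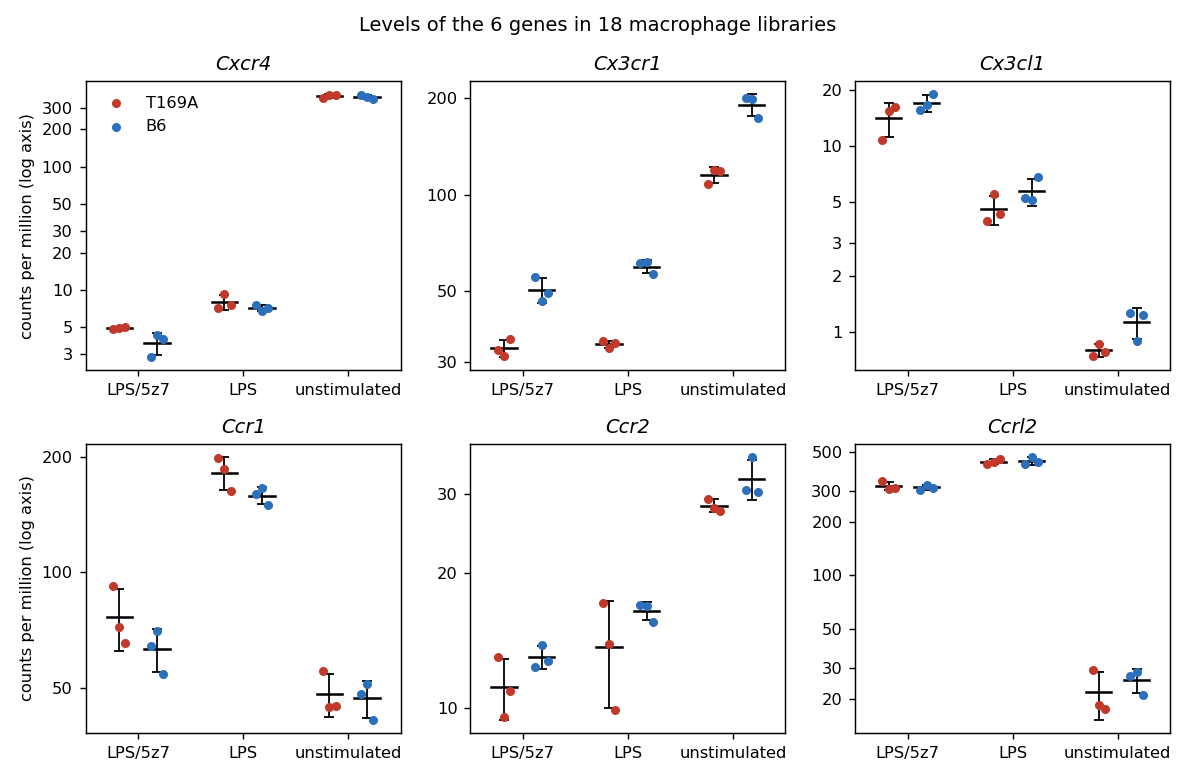
Level of each gene in every library, in counts per M (CPM) on a log axis that differs between panels. Points are the 3 libraries of a group (T169A red, B6 blue), the long bar is their mean and the whiskers are 1 SD. Cxcr4 had at most 9.25 CPM in each stimulated library and at least 352 CPM in each unstimulated one.

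Cxcr4 was the most abundant of the 6 in resting cells and the one that fell furthest within 2 hours. In T169A cells it had 4.80, 4.92 and 5.02 CPM with LPS/5z7, 7.11, 9.25 and 7.50 CPM with LPS, and 360, 383 and 380 CPM unstimulated. In B6 cells it had 2.85, 4.32 and 3.98 CPM with LPS/5z7, 7.56, 6.77 and 7.15 CPM with LPS, and 382, 368 and 352 CPM unstimulated. The 3 conditions did not overlap in either genotype, and unstimulated libraries stood far above the rest. The log2 fold change with LPS was -5.56 ± 0.13 (SE) in T169A and -5.68 ± 0.13 in B6 cells, which is 47.3-fold and 51.3-fold lower (edgeR adjusted p = 2.38e-15 and 2.05e-15). With LPS/5z7 it was lower still, with a change against LPS of -0.69 ± 0.13 in T169A and -0.96 ± 0.13 in B6 cells (edgeR adjusted p = 0.00146 and 0.0001), so that it stood 76.2-fold and 99.8-fold below unstimulated cells. The lowest library still held 63 Cxcr4 counts, well over 3, so the gene was not at the floor.

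Ccrl2, the atypical chemerin receptor gene, took the opposite course and became the most abundant of the 6. Libraries of T169A cells had 340, 309 and 313 CPM with LPS/5z7, 425, 437 and 453 CPM with LPS, and 29.4, 18.5 and 17.7 CPM unstimulated. Those of B6 cells had 305, 322 and 313 CPM with LPS/5z7, 423, 467 and 438 CPM with LPS, and 27.1, 28.7 and 21.2 CPM unstimulated. Each LPS library lay above each LPS/5z7 library, and both lay above all unstimulated ones. LPS raised Ccrl2 by 4.33 ± 0.17 in T169A and 4.10 ± 0.17 in B6 cells on the log2 scale, 20.1-fold and 17.2-fold (edgeR adjusted p = 6.14e-13 and 1.03e-12). The step down from LPS to LPS/5z7 was small, at -0.45 ± 0.14 in T169A and -0.50 ± 0.14 in B6 cells (edgeR adjusted p = 0.0498 and 0.03). In T169A cells that call was lost when any 1 of the 6 libraries was left out (log2 fold change -0.50 to -0.42, edgeR adjusted p up to 0.16). In B6 cells it was lost without LPS/5z7 library 3, 6 or 9 or LPS library 5 or 8 (log2 fold change -0.54 to -0.47, edgeR adjusted p up to 0.0947). With library size alone in place of TMM it was lost in both genotypes, at -0.29 and -0.33 (edgeR adjusted p = 0.146 and 0.0961). The first start of Ccrl2 is the one with the NF-kB consensus shown above. Counts per gene do not show which start was used, and a role of the motif in the rise was not tested.

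Cx3cl1, the fractalkine gene, was the only member called higher with LPS/5z7 than with LPS. Its T169A libraries had 10.7, 15.4 and 16.04 CPM with LPS/5z7, 3.92, 5.49 and 4.27 CPM with LPS, and 0.742, 0.863 and 0.775 CPM unstimulated. Its B6 libraries had 15.5, 16.4 and 18.9 CPM with LPS/5z7, 5.197, 5.08 and 6.76 CPM with LPS, and 1.27, 0.886 and 1.24 CPM unstimulated. The conditions formed 3 separate steps in each genotype, on 18 to 343 counts per library. On the log2 scale LPS raised it by 2.5 ± 0.23 in T169A and 2.33 ± 0.21 in B6 cells (edgeR adjusted p = 4.64e-08 and 4.1e-08). LPS/5z7 stood another 1.62 ± 0.18 above LPS in T169A and 1.60 ± 0.17 in B6 cells, about 3.08-fold and 3.02-fold (edgeR adjusted p = 6.46e-06 and 5.82e-06). Against unstimulated cells the LPS/5z7 level was 17.4-fold higher in T169A and 15.3-fold higher in B6 cells.

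Cx3cr1, the receptor of fractalkine, fell with LPS and showed little further change with 5z7. In T169A libraries it had 32.8, 31.4 and 35.4 CPM with LPS/5z7, 34.9, 33.2 and 34.4 CPM with LPS, and 108, 119 and 119 CPM unstimulated. In B6 libraries it had 55.3, 46.5 and 49.5 CPM with LPS/5z7, 61.1, 61.6 and 56.4 CPM with LPS, and 201, 198 and 174 CPM unstimulated. The LPS/5z7 and LPS libraries overlapped in T169A cells but not in B6 cells, where LPS/5z7 was slightly below. The log2 fold change with LPS was -1.75 ± 0.09 in T169A and -1.68 ± 0.09 in B6 cells, 3.37-fold and 3.20-fold lower (edgeR adjusted p = 1.55e-11 and 2.37e-11). Between LPS/5z7 and LPS it was -0.04 in T169A (95% interval -0.23 to 0.14) and -0.24 in B6 cells (-0.42 to -0.06), with edgeR adjusted p = 0.845 and 0.0698. The value was 0.11 in T169A and -0.08 in B6 cells with library size alone (edgeR adjusted p = 0.393 and 0.552). The B6 value passed the threshold with DESeq2 (-0.28, DESeq2 adjusted p = 0.0167), with DESeq2 size factors in edgeR (-0.28, adjusted p = 0.041) and without LPS/5z7 library 3 (-0.32, edgeR adjusted p = 0.0437). Of 13 alternatives 4 called it, these and the block of running numbers given further below. Of the 4505 exon bases of Cx3cr1, 78 overlap Gm33858 on the opposite strand in the annotation used, and the strand setting of the counting is not given in the sources used here.

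Ccr1, a receptor of CCL3 and CCL5, rose with LPS and lost most of that rise with 5z7. Its levels in T169A cells were 92.0, 71.9 and 65.4 CPM with LPS/5z7, 198, 185 and 163 CPM with LPS, and 55.2, 44.5 and 44.8 CPM unstimulated. Its levels in B6 cells were 64.4, 70.3 and 54.2 CPM with LPS/5z7, 160, 166 and 150 CPM with LPS, and 48.2, 51.2 and 41.3 CPM unstimulated. LPS libraries stood apart at the top, and LPS/5z7 libraries lay just above unstimulated ones without overlap. LPS changed it by 1.92 ± 0.14 in T169A and 1.75 ± 0.14 in B6 cells, and LPS/5z7 against LPS by -1.25 ± 0.13 and -1.33 ± 0.14 (log2; edgeR adjusted p at most 6.52e-06). What remained above unstimulated cells was 0.67 ± 0.13 in T169A and 0.42 ± 0.13 in B6 cells (edgeR adjusted p = 0.000424 and 0.013). That remainder depended on the scaling: with library size alone it was 0.24 in T169A and -0.00186 in B6 cells (edgeR adjusted p = 0.0916 and 0.99), where the median of all genes was -0.43 and -0.47. Without B6 LPS/5z7 library 6 the B6 value was 0.32 (edgeR adjusted p = 0.0902).

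Ccr2, the CCL2 receptor of inflammatory monocytes, fell about 2.05-fold with LPS in T169A and 1.97-fold in B6 cells. T169A libraries had 12.97, 9.53 and 10.9 CPM with LPS/5z7, 17.2, 13.9 and 9.89 CPM with LPS, and 29.3, 27.9 and 27.5 CPM unstimulated. B6 libraries had 12.3, 13.8 and 12.7 CPM with LPS/5z7, 16.9, 16.9 and 15.5 CPM with LPS, and 30.6, 36.2 and 30.3 CPM unstimulated. All stimulated libraries were below all unstimulated ones, and the T169A LPS libraries were the most spread of any group of this gene. The log2 fold change was -1.04 ± 0.15 in T169A and -0.98 ± 0.15 in B6 cells (edgeR adjusted p = 1.04e-05 and 1.67e-05). From LPS to LPS/5z7 it was -0.30 in T169A (95% interval -0.62 to 0.03) and -0.35 in B6 cells (-0.67 to -0.03), not called (edgeR adjusted p = 0.253 and 0.153). With 1 library left out, the T169A value ran from -0.49, called without LPS library 17, the lowest of its group (edgeR adjusted p = 0.0262), to -0.09 without LPS library 11, the highest (edgeR adjusted p = 0.811). The B6 value was called when only its own groups were fitted (-0.36, edgeR adjusted p = 0.0205). With library size alone the change was -0.14 in T169A and -0.18 in B6 cells (edgeR adjusted p = 0.538 and 0.385).

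**Figure D2:**
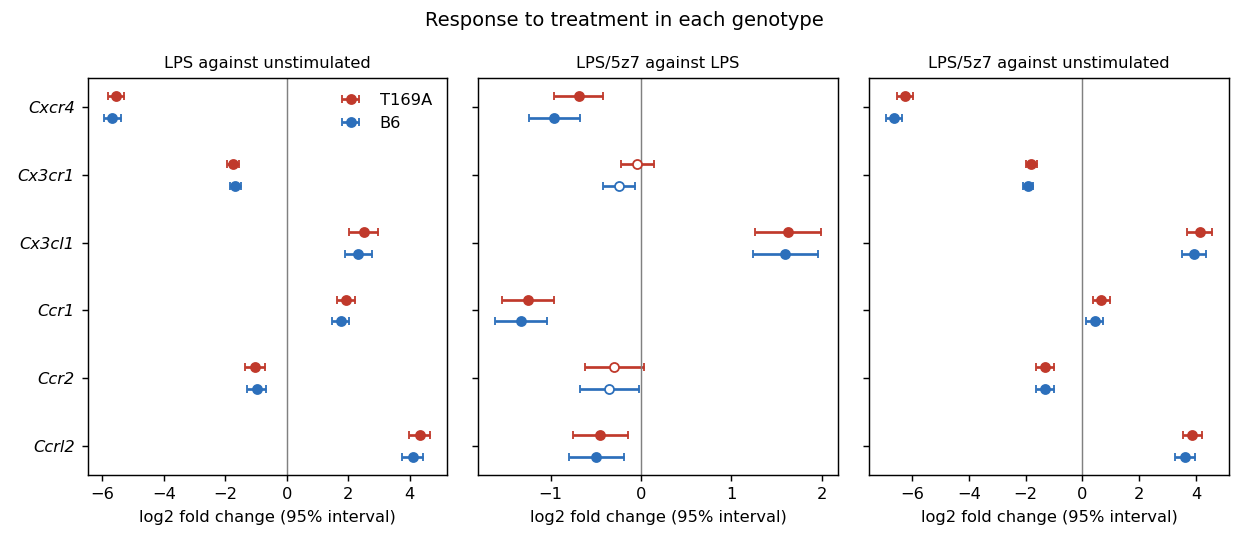
Log2 fold change of each gene for the 3 treatment comparisons (T169A red, B6 blue) with its 95% interval. Filled points passed an adjusted p of 0.05 in edgeR and open points did not. Only Cx3cl1 lies right of 0 for LPS/5z7 against LPS, at 1.62 in T169A and 1.60 in B6 cells.

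The study asked whether the RIPK1 change alters these responses, and the genotypes were compared within each condition. Cx3cr1 was lower in T169A than in B6 cells in all 3 conditions, while the other 5 genes were not called in any. Few genes differed at all: 0.161% of those tested with LPS/5z7 (0.0612% higher and 0.0995% lower), 0.222% with LPS (0.0842% higher and 0.138% lower) and 0.214% unstimulated (0.0765% higher and 0.138% lower). By group, Cx3cr1 averaged 33.2 ± 2.02 CPM in T169A and 50.4 ± 4.50 CPM in B6 cells with LPS/5z7 (SD, n = 3 each). With LPS it averaged 34.2 ± 0.835 CPM in T169A and 59.7 ± 2.85 CPM in B6 cells, and unstimulated 115 ± 6.53 CPM in T169A and 191 ± 14.9 CPM in B6 cells. Every T169A library lay below every B6 library of its condition. The log2 fold change was -0.61 ± 0.09 with LPS/5z7, -0.81 ± 0.09 with LPS and -0.73 ± 0.08 unstimulated, which is 1.52-fold, 1.75-fold and 1.66-fold lower (edgeR adjusted p = 0.00229, 8.07e-05 and 0.000143). The unstimulated call was lost when only the 2 unstimulated groups were fitted (-0.73, edgeR adjusted p = 0.115); the other 11 alternatives kept it, and the stimulated calls held under all 12. Of the markers tested, 0 of the 9 for monocytes and 0 of the 10 for macrophages were called between the genotypes in any condition (edgeR). As at most 0.222% of all genes were called, lists this short would show 0 in most cases. The monocyte sums of the genotypes, given above, overlapped in each condition. Whether the mix of cells differed between the genotypes was not tested.

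For the other 5 genes the differences between genotypes lay between -0.47 and 0.42 on the log2 scale. The largest relative to its error was Cxcr4 with LPS/5z7, where the 3 T169A libraries (4.80 to 5.02 CPM) lay above the 3 B6 libraries (2.85 to 4.32 CPM). It came to 0.42 ± 0.14 with an unadjusted p of 0.00763, but edgeR's adjusted p over all genes was 0.604. Cx3cl1 was -0.28, -0.31 and -0.47 with LPS/5z7, with LPS and unstimulated (edgeR adjusted p = 0.766, 0.876 and 1), and Ccr2 was -0.21, -0.26 and -0.20, both with intervals that include 0. Ccr1 lay between 0.04 and 0.28 and Ccrl2 between -0.24 and 0.03. Unstimulated T169A libraries also lay below the B6 ones for Cx3cl1, at 0.742 to 0.863 against 0.886 to 1.27 CPM. The same held for Ccr2, at 27.5 to 29.25 against 30.3 to 36.2 CPM. In the other comparisons of these 5 genes the libraries of the genotypes overlapped.

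Whether a treatment acted differently in the genotypes was tested as the difference of the effects, T169A minus B6. No member was called, among 0% of all genes called in each of these 3 tests by edgeR (0 of 13068, with 421, 151 and 462 genes at an unadjusted p under 0.05 for the effect of LPS, of LPS/5z7 against LPS and of LPS/5z7 against unstimulated cells); DESeq2 called 0, 0 and 2 genes. For Cx3cr1 the difference was -0.08 for LPS (95% interval -0.33 to 0.18), 0.20 for LPS/5z7 against LPS (-0.06 to 0.46) and 0.12 for LPS/5z7 against unstimulated cells (-0.13 to 0.38). Cxcr4 had the widest difference relative to its error, 0.39 ± 0.17 for LPS/5z7 against unstimulated cells (unadjusted p = 0.0365, edgeR adjusted p = 0.83).

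**Figure D3:**
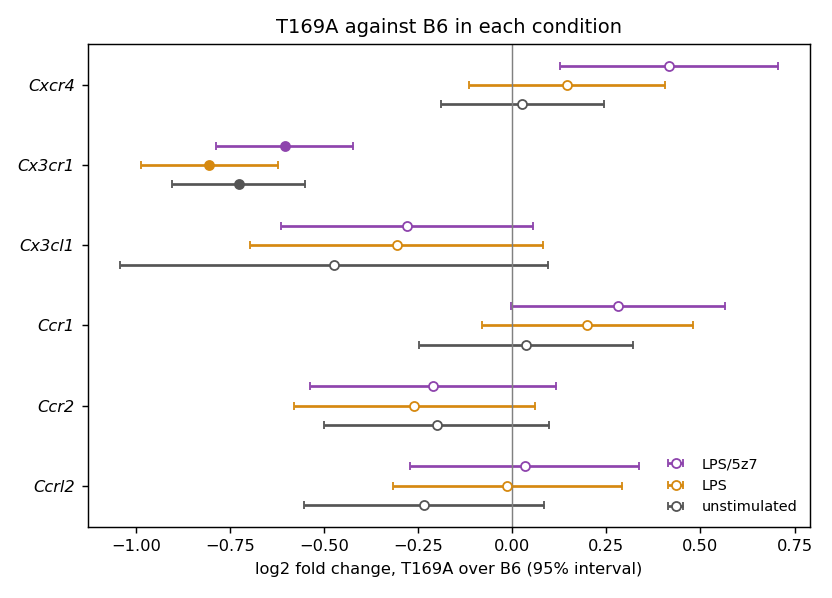
Log2 fold change of T169A over B6 for each gene in each condition, with 95% intervals. Filled points passed an adjusted p of 0.05 in edgeR; these are the 3 values of Cx3cr1, from -0.81 to -0.61.

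Levels of different genes were compared per kb of exon, since longer transcripts collect more counts. In unstimulated T169A cells Cxcr4 led with 207 CPM per kb, followed by Cx3cr1 (25.6), Ccr1 (17), Ccrl2 (8.41), Ccr2 (4.17) and Cx3cl1 (0.202). With LPS the T169A order became Ccrl2 (168.6 CPM per kb), Ccr1 (64.2), Cx3cr1 (7.58), Cxcr4 (4.398), Ccr2 (2.02) and Cx3cl1 (1.16). With LPS/5z7 it was Ccrl2 (123.5), Ccr1 (27.0), Cx3cr1 (7.37), Cx3cl1 (3.57), Cxcr4 (2.72) and Ccr2 (1.65), so the ligand gene passed a pair of receptor genes. B6 cells had the same order in each condition. Neighbours in the order had separate ranges over their libraries except Cx3cl1 and Cxcr4 in T169A cells with LPS/5z7, and Cxcr4 and Ccr2 in B6 cells with LPS/5z7. Between the groups with the highest and the lowest mean, Cxcr4 spanned 100.7-fold, Cx3cl1 21.4-fold, Ccrl2 20.2-fold, Cx3cr1 5.75-fold, Ccr1 3.88-fold and Ccr2 2.91-fold.

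**Figure D4:**
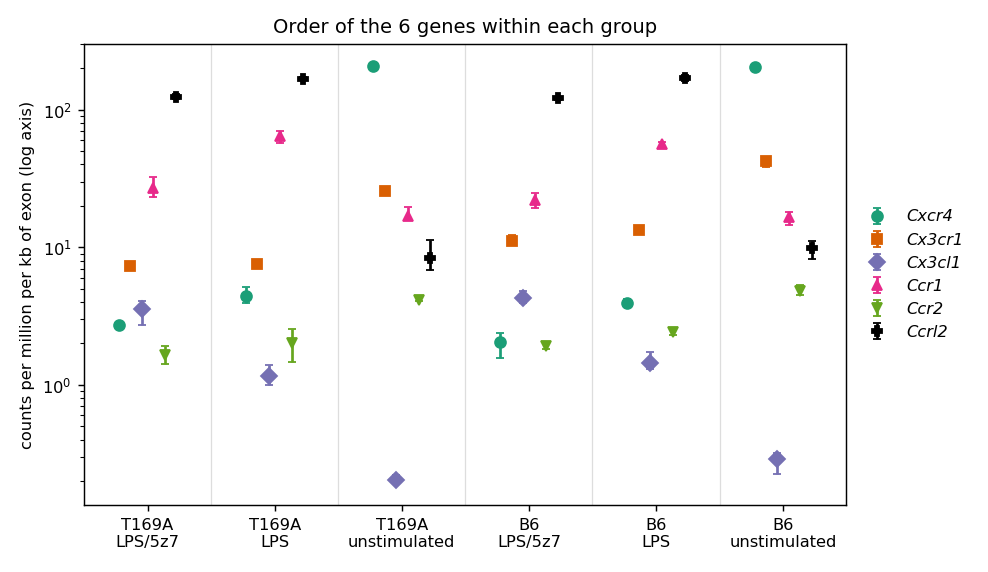
Level of the 6 genes per kb of exon in each group on a log axis. Symbols are the mean of 3 libraries and bars run from the lowest to the highest library. Cxcr4 tops both unstimulated groups at 207 CPM per kb in T169A and 203 CPM per kb in B6 cells, and Ccrl2 tops the 4 stimulated groups.

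The genes whose pattern was most like each member were ranked by Pearson r of log2(CPM + 0.5) over the 18 libraries, among 8455 genes with a mean of at least 10 CPM in a group. The libraries share treatments, so high values arise for any gene that follows the same steps, and r is a description only. Nearest to Cxcr4 were Arhgap25 (r = 0.997), Cd300lb and Zfp36l2; Arhgap25 fell with it, to 11.6 CPM with LPS/5z7 and 15.1 CPM with LPS, against 157 CPM unstimulated in T169A cells. Nearest to Ccrl2 were Nfkb2 (r = 0.999), Sdc4, Nfkbiz and Stx11. Cx3cl1 was closest to Efna2 (r = 0.991), Tspan33, Eci2 and Rin3; Efna2 averaged 17.9 CPM with LPS/5z7, 6.09 CPM with LPS and 0.888 CPM unstimulated in T169A cells, the same 3 steps upward. Ccr1 was closest to Errfi1 (r = 0.981), Coq10b, Flrt3 and Rabgef1, which stood highest with LPS. Cx3cr1 came with Necap1 (r = 0.977), Olfml3, BC005537 and Angptl2, and Ccr2 with Kcnj2 (r = 0.962), BC005537 and Necap1. With Spearman's rank correlation only 1 of the 24 places, 4 for each member, went to the same gene, so the named neighbours depend on the measure.

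Of 21 other chemokine receptor genes, 6 passed the filter. Ackr1, Ackr3, Ackr4, Ccr6, Ccr8 and Gpr1 had no count in any library, which allows up to 0.0986 CPM in the deepest. Cxcr2, the neutrophil receptor, had at most 8 counts and Ccr7, the receptor for lymph node homing, at most 15. Over all genes, 30.3% rose and 31.5% fell with LPS in T169A cells (median -0.03), and 29.6% rose and 33.5% fell in B6 cells (median -0.07). Of the 6 tested here, 4 rose in each genotype (median log2 fold change 0.44 in T169A and 0.65 in B6 cells), while Cxcr3 fell in T169A (-0.69, edgeR adjusted p = 0.0316) and not by the test in B6 cells (-0.61, 0.062). Ccr3, the eotaxin receptor gene, averaged 35.7 ± 3.83 CPM with LPS/5z7, 71.9 ± 1.68 CPM with LPS and 15.7 ± 1.11 CPM unstimulated in T169A cells; in B6 cells the means were 34.6 ± 3.55, 71.1 ± 1.86 and 15.3 ± 0.0737 CPM (SD, n = 3). Like Ccr1 it was highest with LPS, with log2 fold changes of 2.19 and 2.22 for LPS and -1.01 and -1.04 for LPS/5z7 against LPS in T169A and B6 cells (edgeR adjusted p at most 7.16e-07). Cmklr1, the signalling receptor of chemerin, rose by 0.46 in T169A and 0.71 in B6 cells with TMM (edgeR adjusted p = 0.00231 and 4.21e-05). With library size alone in place of TMM the median of all genes was -0.61 in T169A and -0.66 in B6 cells. The Cmklr1 rise is near that size, so it depends on the scaling, as does the count of 4 that includes it. Ccr9, the receptor of gut-homing lymphocytes, was called higher too, but on 1 to 64 counts, so no fold is given. Ccr1l1, a close relative of Ccr1, had 2 to 18 counts and was never called. How reads that match several genes were counted is not given, so Ccr1 and Ccr1l1, which are alike in sequence, are uncertain to that extent. None of the 6 was called between the genotypes (edgeR), where at most 0.222% of all genes were called.

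On chromosome 9, Ccr1, Ccr1l1, Ccr3 and Ccr2 follow each other in that order in RefSeq. Ccr2 fell with LPS while Ccr1 and Ccr3 rose, in both genotypes. Cx3cr1 and Ccrl2 lie elsewhere on the chromosome, Cx3cr1 next to Ccr8 and Ccrl2 next to Ltf, and Cx3cl1 on chromosome 8 lies between Ccl22 and Ccl17. Of 18 genes listed around the cluster and around Ccrl2, 12 were tested. They include the members Ccr1, Ccr2 and Ccrl2 and receptors counted above, such as Ccr3, Ccr9 and Ccr1l1. With LPS 8 rose and 2 fell in T169A cells, and 9 rose and 1 fell in B6 cells (medians 0.46 and 0.73). Over all genes 30.3% rose and 31.5% fell in T169A, and 29.6% rose and 33.5% fell in B6 cells. With LPS/5z7 against LPS 4 were lower in each genotype, among them Ccr1, Ccr3 and Ccrl2, beside 6.53% of all genes in T169A and 6.79% in B6 cells. All 4 are receptor genes, so this count does not describe the locus apart from its receptors. Lztfl1, a gene of ciliary transport beside the cluster, rose by 2.56 ± 0.11 in T169A and 2.49 ± 0.11 in B6 cells with LPS (edgeR adjusted p = 3.31e-12 and 4.52e-12) and was not called for LPS/5z7 against LPS (-0.24 and -0.19, edgeR adjusted p = 0.157 and 0.28).

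The ligands of these receptors were read from a list of 12, of which 11 were tested. With LPS 8 rose in each genotype and none fell, and with LPS/5z7 against LPS 6 were lower in each and none higher: Ccl2, Ccl3, Ccl4, Ccl7, Ccl9 and Ccl12. Over all genes 30.3% rose with LPS in T169A and 29.6% in B6 cells, and 6.53% and 6.79% were lower with LPS/5z7 than with LPS. The list's median log2 fold change was 6.68 in T169A and 6.35 in B6 cells for LPS, beside -0.03 and -0.07 over all genes. Ccl3, a ligand of CCR1, averaged 657 ± 39.9 CPM with LPS/5z7, 3189 ± 374 CPM with LPS and 31.0 ± 3.77 CPM unstimulated in T169A cells, against 713 ± 61.9, 3366 ± 648 and 32.0 ± 5.47 CPM in B6 cells (SD, n = 3). Ccl2, the main ligand of CCR2, averaged 204 ± 27.3 CPM with LPS/5z7, 939 ± 152 CPM with LPS and 6.67 ± 0.282 CPM unstimulated in T169A cells, against 168 ± 14.3, 717 ± 142 and 4.49 ± 2.27 CPM in B6 cells. Ccl3 and its receptor gene Ccr1 were both higher with LPS and lower with 5z7 on top, while Ccl2 rose as its receptor gene Ccr2 fell. Ccl9, which CCR1 also binds, had 5157 ± 96.6 CPM in T169A and 5337 ± 261 CPM in B6 cells with LPS; per kb of exon that was 1694 and 1753 CPM, below Ccl3 at 4163 and 4394 CPM per kb. Ccl9 was slightly lower with LPS/5z7 than with LPS (-0.31 and -0.39, edgeR adjusted p = 0.0284 and 0.0073). Cxcl12, the ligand of CXCR4, had 5 to 18 counts and Rarres2, which encodes chemerin, at most 2, so RNA for these ligands of CXCR4 and CCRL2 was near the floor. Mif, which also binds CXCR4, and Ccl6 were not called in any comparison (edgeR), at 29.9 to 55.6 and 138 to 194 CPM in T169A and 26.3 to 56.3 and 93.3 to 184 CPM in B6 libraries.

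**Figure D5:**
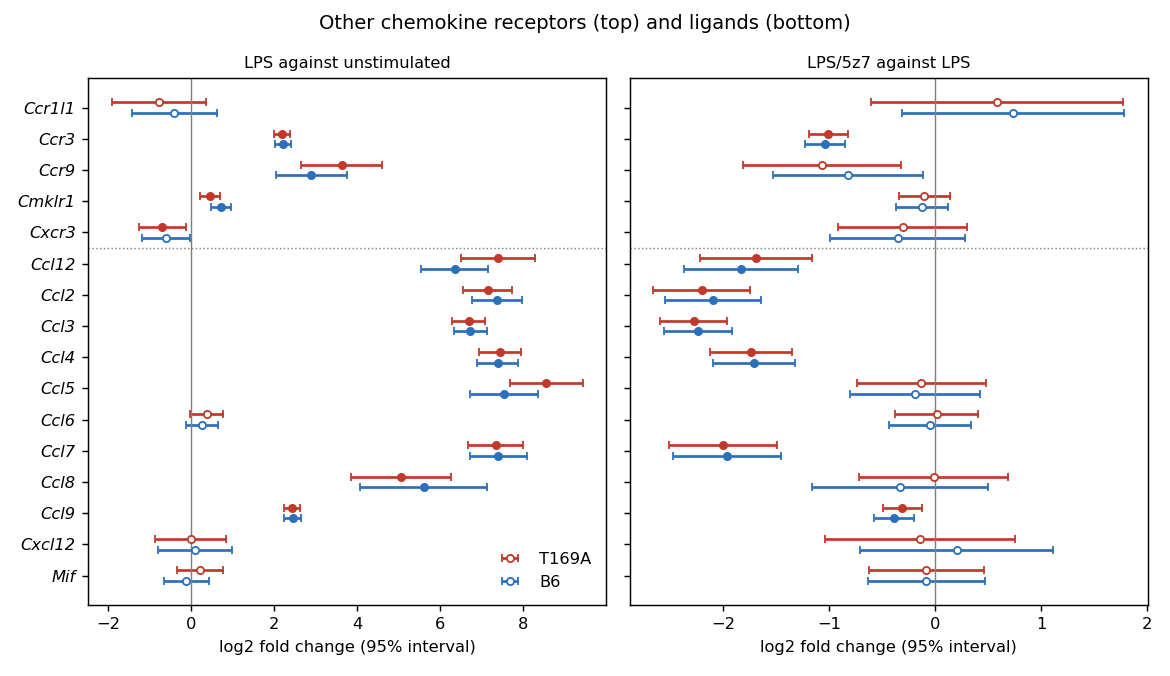
Log2 fold change with 95% interval for 5 other chemokine receptor genes (above the dotted line) and the ligand genes (below it), for LPS against unstimulated and LPS/5z7 against LPS (T169A red, B6 blue). Filled points passed an adjusted p of 0.05 in edgeR. Ccr3 lies right of 0 on the left, at 2.19 in T169A and 2.22 in B6 cells, and left of 0 on the right, at -1.01 and -1.04.

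Fractalkine is cut from the membrane by ADAM10 and, after stimulation, by ADAM17, whose activity needs the inactive rhomboids Rhbdf1 and Rhbdf2; cathepsin S, from Ctss, cuts it too. All 5 genes were tested, and 3 rose with LPS in each genotype (medians 0.90 in T169A and 0.92 in B6 cells). Over all genes 30.3% rose in T169A and 29.6% in B6 cells. Rhbdf2 rose by 2.74 ± 0.12 in T169A and 2.77 ± 0.12 in B6 cells, Rhbdf1 by 1.56 ± 0.25 and 1.26 ± 0.26, and Adam17 by 0.90 ± 0.11 and 0.92 ± 0.11 (edgeR adjusted p at most 0.00037). Adam10 was called lower with LPS in T169A cells and not in B6 cells, and the difference between the genotypes was not called. With LPS/5z7, Rhbdf2 averaged 316 ± 14.6 CPM in T169A and 310 ± 37.0 CPM in B6 cells, against 537 ± 18.7 and 525 ± 69.2 CPM with LPS (-0.77 and -0.76, edgeR adjusted p = 0.000138 and 0.000155). Cx3cl1 RNA was higher and Rhbdf2 RNA lower with LPS/5z7 than with LPS, while Adam17 averaged 815 ± 31.5 CPM with LPS/5z7 and 835 ± 78.5 CPM with LPS in T169A, and 916 ± 8.66 CPM with LPS/5z7 and 946 ± 48.6 CPM with LPS in B6 cells.

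Of 25 genes for signalling and desensitisation downstream of the receptors, all tested, 9 rose and 9 fell with LPS in T169A cells, and 9 rose and 11 fell in B6 cells (medians -0.20 and 0.01). Set beside the 30.3% higher and 31.5% lower of all genes in T169A cells and 29.6% and 33.5% in B6 cells, these counts are no result about the list. Rgs2, which speeds the shut-off of G proteins, fell by 4.50 on the log2 scale in T169A and by 4.27 in B6 cells, and its relative Rgs16 rose by 3 and 3.66 (edgeR adjusted p at most 1.28e-09). Pik3r5, the regulatory subunit of the PI3 kinase that chemokine receptors use, rose by 1.85 and 1.82, and Plcb3, a phospholipase C, by 0.92 and 1.04 (edgeR adjusted p at most 2.83e-08). Grk2, the kinase that marks occupied receptors for internalisation, was lower with LPS (-0.48 in T169A and -0.55 in B6 cells) and lower still with LPS/5z7 against LPS (-0.35 and -0.34, edgeR adjusted p = 0.0129 and 0.0159). Grk2 was the only one of the 25 called for LPS/5z7 against LPS in T169A cells. In B6 cells Gnb1 was also lower and Arrb1, a beta-arrestin, higher. Over all genes 13% were called in T169A and 13.8% in B6 cells. Gnai2, the main inhibitory G protein of leukocytes, and Prex1 were not called in any comparison (edgeR), with group means of 729 to 802 CPM and 269 to 308 CPM. No gene of the ligand, protease, signalling or chromosome 9 lists was called between T169A and B6 cells in any condition (edgeR). At most 0.222% of all genes were called there, so this is no result about the lists.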

How the data were processed

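Each of the 18 macrophage libraries was prepared with a directional TrueSeq kit, per the labels' protocols. The deposited values are raw counts of reads per gene, and the submitters' processing notes name Trim Galore, STAR, featureCounts and the build GRCm39; versions, strand setting and the handling of reads that match several genes are not given in the sources used here. Columns carry a running number and no replicate letter, so they were tied to groups, and libraries are named by that number. No column was left out.

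Symbols and exon lengths came from GENCODE M21, which matched 52029 of 56953 gene IDs (91.4%). Counts were filtered with filterByExpr, scaled by TMM and fitted with edgeR 4.0.16 in R 4.3.3 (quasi-likelihood, robust, 6 group means over 18 libraries, 13068 genes, Benjamini-Hochberg over all of them, threshold 0.05). Values are TMM-scaled CPM; the SE is the log2 fold change over the square root of F. Depth per library was 14.6 to 30.4 M counts, and intervals cover the spread between libraries. DESeq2 1.42.0, other scalings and filters, fits on the groups compared alone, a block of running numbers and each library left out were alternatives. Lists gave all members, the 4 list genes with the smallest p in B6 for LPS against unstimulated and for LPS/5z7 against LPS, and the most abundant never called; Cxcl12, Rarres2, Adam10, Cxcr2, Ccr7 and Cxcr3 were also named after their values were seen. The members and lists were chosen with earlier results of these data known. Marker lists covered macrophages, monocytes, neutrophils, T, B and natural killer cells, dendritic cells, mast cells, osteoclasts, fibroblasts, endothelium and erythroid cells. Plots were made in Python 3.11.15 with matplotlib 3.10.9. A few genes of the lists and of the pattern ranking are counted but not reported here by name.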

Additional observations from a re-analysis of the deposited data

How the results depend on the processing

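Over the 6 genes, 12 comparisons and their alternatives, 978 of 1026 values kept direction and side of the threshold, 16 lost a call, 6 gained one and 26 changed sign; the cause was not tested. With library size alone Ccr1 came to -0.00186 for LPS/5z7 against unstimulated B6 cells, where TMM gave a called 0.42. The other sign changes were of values not called. With library size alone Cx3cr1 was 0.115 for LPS/5z7 against LPS in T169A cells, and Ccrl2 was 0.0145 for T169A against B6 with LPS. Without the filter the difference of the LPS/5z7 against unstimulated effect was 0.0137 for Ccr2. With the unstimulated groups fitted alone, 0 members in place of 1 were called between the genotypes.

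With each library left out, T169A against B6 ran from -0.00229 to 0.055 for Cxcr4 and from -0.0725 to 0.105 for Ccr1 unstimulated, and for Ccrl2 from -0.0542 to 0.0199 with LPS and from -0.00392 to 0.0614 with LPS/5z7. The difference of the LPS effect ran from -0.0129 to 0.181 for Cxcr4 and from -0.29 to 0.11 for Ccr2. That of LPS/5z7 against LPS ran from -0.0768 to 0.213 for Cx3cl1, -0.0609 to 0.196 for Ccr1 and -0.118 to 0.283 for Ccr2, and that of LPS/5z7 against unstimulated from -0.141 to 0.0922 for Ccr2.

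Sample titles carry a letter that recurs in the 3 conditions of 1 genotype. Columns carry no such letter, so a block by letter was not run. Running numbers form sets that hold 3 conditions of 1 genotype: r of same-set deviations was -0.0503 to 0.57 (15 of 18 pairs over 0.1), and 12 of 18 libraries correlated best with their own set. That is a hint of pairing from the data, but 3 pairs were not over 0.1 and no label says what a set or a title letter shares, so the samples were not treated as paired. With a replicate block of these sets Cx3cr1 for LPS/5z7 against LPS in B6 cells was -0.24 (edgeR adjusted p = 0.0377), and no other member call changed. No paired analysis was possible for T169A against B6, because the genotypes share no set.

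Calls over all genes were less stable. For LPS/5z7 against LPS, 1703 in T169A cells became 2707 with library size alone and 1102, 1078 and 1009 without library 14, 15 or 18, and 1806 in B6 cells became 2853 with library size alone and 1159 and 1169 without library 5 or 6. For T169A against B6, 28 unstimulated became 60 with DESeq2, 7 with those groups alone, and 45 and 46 without library 10 or 7. With LPS, 29 became 47 with DESeq2, 13 alone, and 16 to 19 without library 5, 14, 2 or 17. With LPS/5z7, 21 became 45 with DESeq2, 39 without the filter and 223 alone.

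With the longest transcript in place of exon length 34 of 36 ranks in the order of levels held. With Spearman's rho 1 of 24 places of pattern likeness held, and with a pseudocount of 2, 21 did. Depth limits Cx3cl1 most, with 18 counts in its lowest library.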
